A study of Arabidopsis thaliana with 6 samples.

Results

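The cytosolic 40S ribosomal protein genes are those that encode the proteins of the small subunit of the ribosome in the plant cell's cytosol. Members were the loci on a list of 60 such genes, for 24 proteins, that had a probe set paired with 1 gene in the annotation of the array. This held for 31 genes of 16 proteins, out of 13286 loci that the annotation pairs with such a probe set. Each of the 31 had 1 probe set. A further 11 listed loci were only on 6 probe sets that match several genes, and 18 are unnamed here. The genes of S5, S6, S15a and S18, among them RPS5A, RPS5B and PFL, are in the last group and are not analysed here. Of the 16 proteins, 11 had at least 2 measured genes, which gave 19 pairs of paralogues, and 5 had 1.

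The small subunit binds the messenger RNA and reads its codons, while the large, 60S subunit joins amino acids. Each small subunit is built in the nucleolus from 1 ribosomal RNA and a set of proteins, with 1 copy of each. In Arabidopsis each of these proteins is encoded by a small family of genes, whose products are nearly alike and can take the same place in the particle. Ribosomal protein genes are known for high transcript levels in growing and dividing cells, such as those of root tips and young primordia.

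Cells came from line J0121, a GAL4-GFP enhancer trap of Arabidopsis thaliana whose fluorescence marks the xylem pole pericycle, the root layer in which lateral roots start. All seedlings were grown on 10 µM NPA, which blocks auxin transport, and their cells were sorted at 72 h after germination (0 h), or after a further 2 h or 6 h on 10 µM of the auxin NAA, at ages of 74 and 78 h. There were 2 arrays a time point, labelled as biological replicates. The p-values rest on a spread between replicates pooled over the 3 time points, with 3 residual degrees of freedom. That spread is drawn towards a trend over all tested probe sets, with 8.26 prior degrees of freedom. Per the labels, total RNA was below detection before it was labelled. Arrays at 74 and 78 h without NAA were not analysed here, and therefore hours of NAA and seedling age cannot be told apart. In sorted, pooled cells fewer cells of a type and less RNA per cell cannot be told apart either.

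Values are MAS5 signals, linear intensities that the authors scaled to the same trimmed mean of 250 on every array, so a signal stands for a share of the labelled RNA and not for an amount per cell. Changes are differences of log2(signal + 5). A probe set was called where limma's Benjamini-Hochberg adjusted p over all 13647 tested probe sets was under 0.05. All 31 genes passed the filter on dim probe sets. The dimmest of them lay at the 54.1 and 55.0 percentile of all probe sets on the 0 h arrays, so the 0 h signals alone placed every gene above the middle of the array. All 31 were also called present on replicate 1 at 2 h, the array with detection calls, against 54.8% of all probe sets. The Pearson r between the 2 arrays of a time point, over all probe sets other than controls, ran from 0.881 (0 h) to 0.932 (2 h). Hybridisation controls were brighter on replicate 1 than on replicate 2 at 0 h, and the reverse at 2 h and 6 h, and changes are therefore also given between brighter arrays alone and between dimmer arrays alone. Actin 3' to 5' ratios, a sign of RNA quality, lay between 1.37 and 2.98 before 6 h and at 3.84 and 4.48 at 6 h. Those of GAPDH were 5.78 and 2.68 (0 h), 4.73 and 3.93 (2 h), then 4.37 and 3.42 (6 h). Ubiquitin ratios lay between 5.99 and 10.7 on the 6 arrays. The part of these ratios in the results was not tested.

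The pericycle label was checked against marker genes. Of 5 pericycle markers, AT4G30450 was the one with a name here, with signals of 10474.9 and 8147.3 at 0 h, 1399.6 and 634 at 2 h, then 7.1 and 7.9 at 6 h. It was bright at 0 h and near the pseudocount at 6 h. Of 15 markers of endodermis, cortex, epidermis, phloem and xylem 6 were named, none of them for xylem. Their summed signals were 947.9 and 1124.7 (0 h), 703 and 1484 (2 h), then 268.5 and 392.3 (6 h), most of them from the endodermal gene GSO1 at 0 h and 2 h. Without GSO1 the sum lay between 149.6 and 366.2 on all 6 arrays. None of the 4 that could be tested was called higher at 2 h or 6 h than at 0 h (limma), and their part in the results was not tested.

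The 40S genes were higher after NAA as a group. At 2 h 22 of 31 were called higher than at 0 h and 0 lower (limma), where 7.26% of all tested probe sets were called higher and 4.12% lower. At 6 h 29 of 31 were called higher than at 0 h and 0 lower, where 16.8% of all tested probe sets were called higher and 17% lower. In limma's F test over the 3 time points 29 of 31 differed, as did 29.6% of all tested probe sets. The median change was 1.65 on the log2 scale at 2 h and 2.21 at 6 h, against -0.15 and -0.11 over all tested probe sets. Centring each array on its median moved those backgrounds to 0.12 and 0.01 and the medians of the 40S genes to 1.92 and 2.33. The same 0 h arrays stand in both comparisons. All 31 changes were above 0 at both times.

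The pattern holds by protein too. At 2 h 14 of the 16 proteins had at least 1 gene called higher than at 0 h, S3 and S12 being the exceptions. At 6 h all 16 proteins did, and for 14 of them every measured gene was called higher. The genes that were not called at 6 h were AT5G20290 of S8 and AT1G15930 of S12. The fitted change was at least 2-fold for 28 genes and at least 4-fold for 6 at 2 h, and for 30 and 21 at 6 h. These fold counts are a description, with no share of all tested probe sets beside them.

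**Figure D1:**
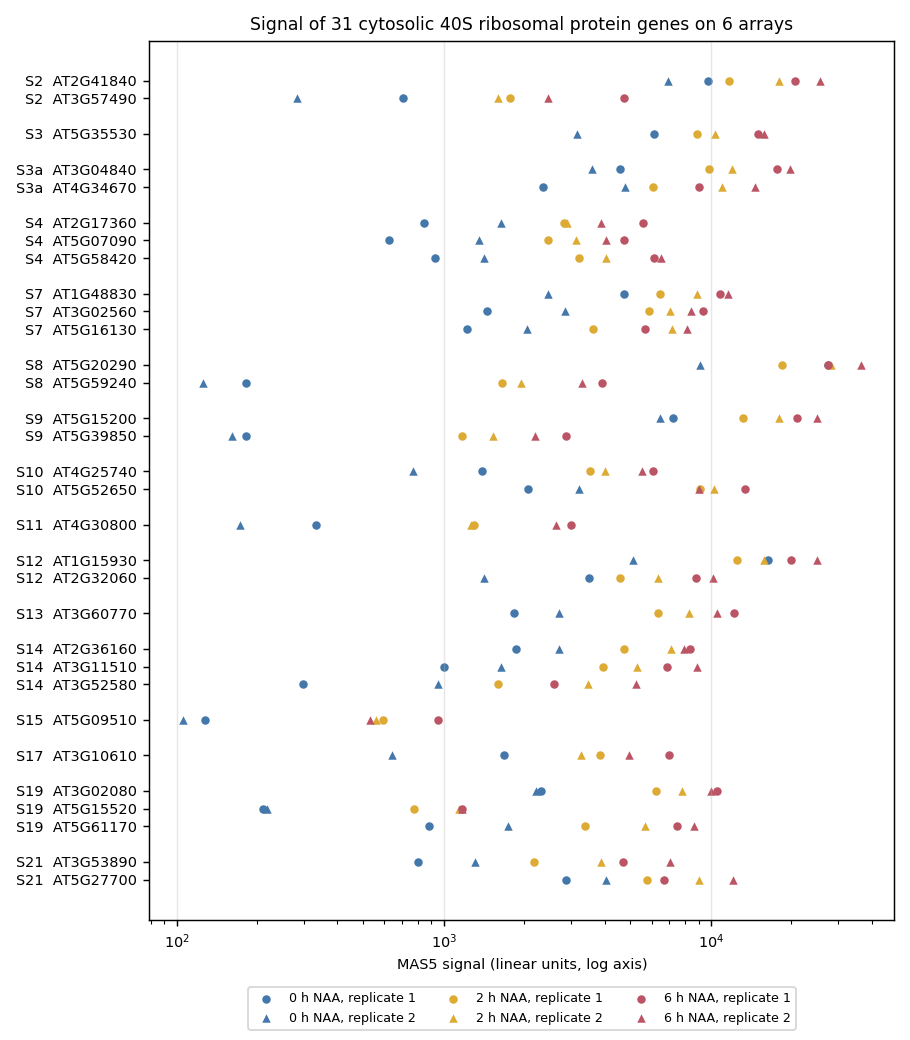
MAS5 signal (linear units on a log axis) of each of the 31 genes on the 6 arrays, with circles for replicate 1 and triangles for replicate 2, grouped by protein. Within a row the signals at 6 h lie above those at 0 h for every gene, while signals of different rows come from different probe sets and cannot be compared as transcript levels.

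The groups of arrays were mostly separate. Both 2 h arrays lay above both 0 h arrays for 29 of 31 genes, as for 22.6% of all tested probe sets. Both 6 h arrays lay above both 0 h arrays for all 31, as for 30.4% of all tested probe sets. In 23 genes the arrays stood in the order 0 h, 2 h, 6 h with no overlap at either step, as in 11.2% of all tested probe sets. The 31 genes had median signals of 1453.6 and 1739.9 (0 h), 3948.8 and 6330.8 (2 h), then 6999 and 8455.6 (6 h). Within the brighter arrays the median log2 change was 1.93 at 2 h and 2.12 at 6 h, and within the dimmer arrays 1.26 and 2.09. At 6 h all 31 changes were above 0 in either set of arrays, and at 2 h 30 were above 0 between brighter arrays and 31 between dimmer arrays.

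The count at 2 h was smaller with either array of that time point left out, as was that of all tested probe sets. Without replicate 2 at 2 h, 5 of 31 genes were called higher than at 0 h, with a median change of 1.45, and 2.62% of all tested probe sets were. Without replicate 1 at 2 h, 15 genes and 3.28% of all tested probe sets were. Of the 31 genes, 27 had a higher signal on replicate 2 than on replicate 1 at 2 h, by a median of 0.38 on the log2 scale. Calls under all 19 settings tried are given for the 31 genes alone, with no share of all tested probe sets to set beside them. The 5 genes called at 2 h under all 19 settings tried were AT5G59240 (S8), AT5G39850 (S9), AT4G30800 (S11), AT5G09510 (S15) and AT5G15520 (S19). At 6 h 26 genes were called under all 19.

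From 2 h to 6 h every gene's fitted change was above 0, but none was called. Of 31 genes 0 were called in either direction at 6 h against 2 h (limma), where 3.13% of all tested probe sets were called higher and 5.59% lower. An unadjusted p under 0.05 (limma) was reached by 7 of the 31, and by 3141 of all 13647 tested probe sets. The smallest adjusted p was 0.0759, for AT4G30800, whose adjusted p was 0.0248 without replicate 1 and 0.0235 without replicate 2 at 0 h. AT5G59240 was called without either of these too (0.0442 and 0.0425, limma). No 0 h array enters these 2 genes' changes from 2 h to 6 h, which stayed at 1.13 and 1.00 in those fits. Only the estimated spread and the probe sets tested could shift their adjusted p. The median change of the 31 genes was 0.66 on the log2 scale against 0.10 over all tested probe sets. Both 6 h arrays lay above both 2 h arrays for 24 genes, as for 32.1% of all tested probe sets. The median was 0.47 within the brighter and 0.79 within the dimmer arrays. Relative to the 1.65 gained over the first 2 h this is a smaller step over a longer time, and both steps use the 2 h arrays. The plot of changes by gene shows both time points side by side.

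**Figure D2:**
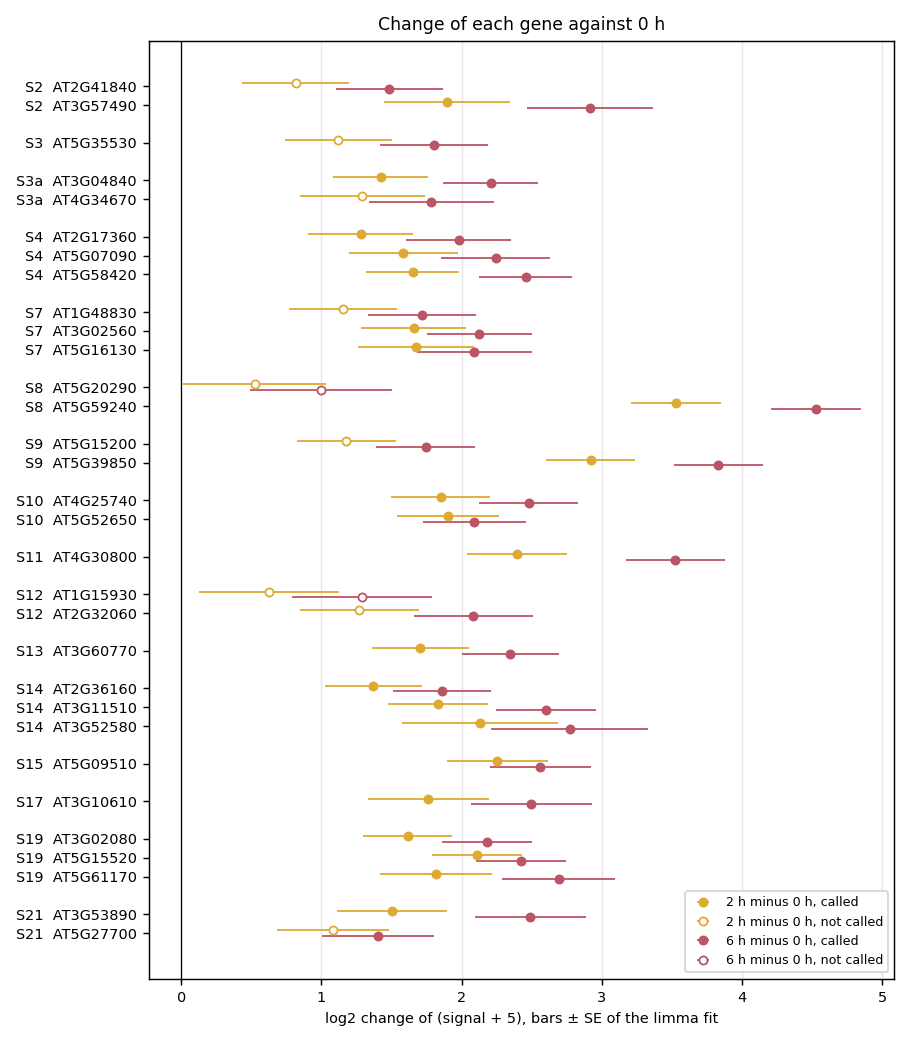
Log2 change of each gene at 2 h and at 6 h against 0 h with its standard error from the limma fit (2 arrays a time point). Filled points were called at an adjusted p under 0.05. All points lie to the right of 0, and AT5G59240, AT5G39850 and AT4G30800 lie farthest out at 6 h.

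Proteins S2, S3 and S9 (uS5, uS3 and uS4 in the naming shared by all ribosomes) surround the entry of the messenger RNA channel. The assignment of genes to proteins follows the usual names of Arabidopsis ribosomal proteins, since the tables used here give these 31 genes by locus alone. Of S9, AT5G39850 had signals of 182.7 and 161.6 at 0 h, 1166.5 and 1523.8 at 2 h, then 2862.5 and 2197.8 at 6 h. Its arrays stood in the order of the time points with no overlap, and its change from 2 h to 6 h was not called (0.91 ± 0.32; adjusted p = 0.107, limma). Its log2 change was 2.92 ± 0.32 at 2 h (SE; adjusted p = 4.46e-04, limma) and 3.83 ± 0.32 at 6 h, a 14.2-fold rise. The other S9 gene, AT5G15200, had signals of 7208.6 and 6449.2 at 0 h, 13208.2 and 17996.3 at 2 h, then 20951.9 and 24887.7 at 6 h. Its arrays also stood in order with no overlap, but over a narrower range. Its change was 1.18 ± 0.35 at 2 h, which was not called (adjusted p = 0.0541, limma), and 1.74 ± 0.35 at 6 h, which was (adjusted p = 0.00296).

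Of S2, AT3G57490 had signals of 706.7 and 281.8 at 0 h, 1764.8 and 1590.5 at 2 h, then 4733.6 and 2456.5 at 6 h. The replicates at 0 h and at 6 h were far apart, yet the time points did not overlap. It rose by 1.90 ± 0.45 on the log2 scale at 2 h and by 2.92 ± 0.45 at 6 h. The second S2 gene, AT2G41840, had signals of 9791.5 and 6904.5 at 0 h, 11663.9 and 18003.2 at 2 h, then 20639.7 and 25668.7 at 6 h. It was not called at 2 h (0.82 ± 0.38; adjusted p = 0.199, limma) and rose by 1.48 ± 0.38 at 6 h, a 2.80-fold rise. The S3 gene AT5G35530 had a change of 1.12 ± 0.38 at 2 h, which was not called, and rose by 1.80 ± 0.38 at 6 h.

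Proteins S4, S7, S8 and S11 (eS4, eS7, eS8 and uS17) sit in the body of the subunit. S8 held both the gene with the largest and the gene with the smallest change against 0 h of all 31, at 2 h and at 6 h. AT5G59240 had signals of 182 and 125.6 at 0 h, 1653.2 and 1951 at 2 h, then 3908.1 and 3299.7 at 6 h. Each time point was clear of the one before. It rose by 3.53 ± 0.32 on the log2 scale at 2 h (11.5-fold; adjusted p = 1.81e-04, limma) and by 4.52 ± 0.32 at 6 h (23-fold; adjusted p = 8.63e-06).

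AT5G20290, the other S8 gene, had signals of 27504.7 and 9132.9 at 0 h, 18425.4 and 28229.6 at 2 h, then 27558.3 and 36349 at 6 h. The 0 h replicates were 3-fold apart, and replicate 1 at 0 h lay above replicate 1 at 2 h and just below replicate 1 at 6 h. Its change was 0.52 ± 0.51 at 2 h and 1.00 ± 0.51 at 6 h, and neither was called (adjusted p = 0.560 and 0.156, limma). Without replicate 2 at 0 h the change at 2 h was -0.27. By signal its probe set ranked between 1 and 6 of its array on 5 arrays, being the brightest on replicate 1 at 6 h. Its rank was 62 on replicate 2 at 0 h.

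The S11 gene AT4G30800 had signals of 331.7 and 172.9 at 0 h, 1298 and 1265.8 at 2 h, then 3002.9 and 2626.2 at 6 h. It rose by 2.39 ± 0.35 at 2 h and by 3.52 ± 0.35 at 6 h, 11.5-fold, and its step from 2 h to 6 h was the largest of the 31 (1.13 ± 0.35; adjusted p = 0.0759, limma). The 3 genes of S4 (AT2G17360, AT5G07090 and AT5G58420) rose by 1.28 to 1.65 at 2 h and by 1.98 to 2.46 at 6 h, all called. Of the 3 genes of S7, AT3G02560 and AT5G16130 rose at both times, by 2.12 and 2.09 at 6 h. AT1G48830 was called at 6 h alone, with changes of 1.15 ± 0.38 and 1.72 ± 0.38.

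Proteins S3a, S13, S14 and S21 (eS1, uS15, uS11 and eS21) lie on the platform side, where the messenger RNA leaves. Both S21 genes were higher at 6 h than at 0 h. AT3G53890 had signals of 798.9 and 1304.2 at 0 h, 2177.4 and 3875.6 at 2 h, then 4696.1 and 7062.4 at 6 h. It rose by 1.50 ± 0.39 at 2 h and by 2.49 ± 0.39 at 6 h, with no overlap at either step. AT5G27700 had signals of 2859.9 and 4052.5 at 0 h, 5760.4 and 9032.8 at 2 h, then 6682.9 and 12147.2 at 6 h. Its 2 h and 6 h arrays overlapped. Its change was 1.08 ± 0.40 at 2 h, which was not called (adjusted p = 0.110, limma), and it rose by 1.40 ± 0.40 at 6 h (adjusted p = 0.0190).

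Of S14, a protein needed late in the making of the subunit in yeast, all 3 genes were called at both times. At 6 h AT3G52580 rose by 2.77 ± 0.56, AT3G11510 by 2.60 ± 0.36 and AT2G36160 by 1.86 ± 0.35. AT3G52580 was lower on replicate 1 than on replicate 2 at each time point, and had changes at 6 h of 4.11 within the brighter and 1.43 within the dimmer arrays. The S13 gene AT3G60770 rose by 1.70 ± 0.34 at 2 h and by 2.35 ± 0.34 at 6 h. Of S3a, AT3G04840 rose at both times (2.21 ± 0.34 at 6 h), and AT4G34670 had a change of 1.29 ± 0.45 at 2 h, not called, and rose by 1.79 ± 0.45 at 6 h.

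Proteins S10, S12, S15, S17 and S19 (eS10, eS12, uS19, eS17 and eS19) belong to the head and beak, the part that swivels during movement along the messenger RNA. Genes of S17 and S19 are mutated in the human blood disorder Diamond-Blackfan anaemia. AT5G09510, of S15, had signals of 127.9 and 106 at 0 h, 590.4 and 558 at 2 h, then 954.5 and 530.4 at 6 h. Both later time points were clear of 0 h, and the 6 h arrays lay on both sides of the 2 h arrays. It rose by 2.25 ± 0.36 at 2 h and by 2.56 ± 0.36 at 6 h, with a step of 0.31 ± 0.36 between them.

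AT5G15520, of S19, had signals of 210.5 and 218.6 at 0 h, 774.6 and 1144.1 at 2 h, then 1174.4 and 1167.4 at 6 h. It rose by 2.11 ± 0.32 at 2 h and 2.42 ± 0.32 at 6 h, and its 6 h arrays lay just above its 2 h arrays. The other S19 genes rose by 2.69 ± 0.40 (AT5G61170) and 2.18 ± 0.32 (AT3G02080) at 6 h. AT5G52650, of S10, had signals of 2069.5 and 3220.1 at 0 h, 9111.2 and 10239.8 at 2 h, then 13476 and 9012.9 at 6 h. It rose by 1.90 ± 0.36 at 2 h and 2.09 ± 0.36 at 6 h, and its 6 h arrays fell on either side of the 2 h arrays (0.19 ± 0.36, the smallest step of the 31). Its paralogue AT4G25740 rose by 1.85 ± 0.35 and 2.48 ± 0.35.

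AT1G15930, of S12, had signals of 16354.9 and 5103.1 at 0 h, 12506.8 and 15881.9 at 2 h, then 19963.9 and 25043.1 at 6 h. Its 0 h replicates differed by 1.68 on the log2 scale, the widest gap of the 31 genes, and both 2 h arrays lay below replicate 1 at 0 h. Its change was 0.63 ± 0.50 at 2 h and 1.29 ± 0.50 at 6 h, and neither was called (adjusted p = 0.467 and 0.0669, limma). Without replicate 2 at 0 h the change at 2 h was -0.21. The second S12 gene, AT2G32060, had a change of 1.27 ± 0.43 at 2 h, not called, and rose by 2.08 ± 0.43 at 6 h. The S17 gene AT3G10610 rose by 1.76 ± 0.43 at 2 h and 2.50 ± 0.43 at 6 h.

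Replicates of the 31 genes lay farthest apart at 0 h, where the median size of their difference was 0.74 on the log2 scale, with 0.38 at 2 h and 0.25 at 6 h. Of 31 genes 8 (25.8%) differed by over 1 on the log2 scale between the 0 h replicates, against 20.4% of all tested probe sets, and AT3G52580 alone did at 2 h and at 6 h. The 0 h difference had no common sign. Replicate 1 was higher for 16 genes and replicate 2 for 15, from 1.68 for AT1G15930 to -1.67 for AT3G52580 (replicate 1 minus replicate 2).

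Paralogues were compared by the difference of their log2 values within each array, since signals of different probe sets are not on 1 scale but their changes can be set side by side. The change of that difference between time points has a standard error from 3 residual degrees of freedom and a 95% interval, given as a description. In each pair the gene with the larger change at 6 h was put first. The sign of every 6 h difference is therefore set by this order and is not a result. The pairs were chosen with earlier results known, so these intervals are not used as tests, and an exact two-sided permutation test of 2 arrays against 2 could not go below p = 0.333. Of 19 pairs 4 (21.1%) parted by over 1 on the log2 scale at 6 h with no overlap between the 0 h and the 6 h arrays. Among 60 pairs of 60S genes 22 (36.7%) did. At 2 h 3 pairs (15.8%) of 40S and 17 (28.3%) of 60S genes had parted in this way, and between 2 h and 6 h 0 (0.00%) and 1 (1.67%) had. Without the minimum of 1, the arrays of the 40S pairs did not overlap in 9 pairs (47.4%) at 2 h, 8 (42.1%) at 6 h and 6 (31.6%) between 2 h and 6 h. For the 60S pairs the shares were 61.7%, 63.3% and 30%. With 2 arrays against 2, array order alone gives no overlap, in either direction, with a probability of 0.333. These shares are a description, and no share for pairs from all tested probe sets is given.

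For S8 the change of AT5G59240 exceeded that of AT5G20290 by 3.00 ± 0.53 at 2 h and by 3.53 ± 0.53 at 6 h (95% interval 1.83 to 5.22). Within arrays the log2 signal of AT5G59240 minus that of AT5G20290 was -7.20 and -6.13 (0 h), -3.47 and -3.85 (2 h), then -2.82 and -3.46 (6 h). The difference at 6 h was 3.74 within the brighter and 3.31 within the dimmer arrays. It stayed over 1 with no overlap in all 11 settings tried, the main one included. Among these, centring on the array median and leaving out a 2 h array cannot change a within-array difference at 6 h against 0 h. AT5G20290, with ranks near the top of its array, enters this difference on every array, and whether its signal was limited by the upper end of the scale was not tested by any of these settings. For S9 the change of AT5G39850 exceeded that of AT5G15200 by 1.74 ± 0.26 at 2 h and 2.09 ± 0.26 at 6 h (1.27 to 2.91), again in all 11 settings. A limit at the upper end of the scale was not tested for AT5G15200 either, with signals of 20951.9 and 24887.7 at 6 h. The S9 differences at 0 h, -5.26 and -5.28, nearly coincided, against -2.87 and -3.50 at 6 h.

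The S2 and S21 pairs were less firm. The change of AT3G57490 exceeded that of AT2G41840 by 1.43 ± 0.69 at 6 h, with an interval that spans 0 (-0.76 to 3.62). It was 0.40 within the brighter and 2.47 within the dimmer arrays, and without replicate 1 at 6 h the pair did not part. For S21 the change of AT3G53890 exceeded that of AT5G27700 by 0.42 ± 0.16 at 2 h and by 1.09 ± 0.16 at 6 h (0.59 to 1.59), and by 1.05 and 1.12 within the brighter and dimmer arrays. It fell below 1 without replicate 1 at 0 h or at 6 h. Of the 19 pairs, this was the one whose interval between 2 h and 6 h lay clear of 0 (0.67 ± 0.16; 0.16 to 1.17). In the S8, S9, S2 and S21 pairs alike, the gene with the smaller change had the higher signal on every array. Whether limits at the upper end of the scale played a part in these differences was not tested.

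**Figure D3:**
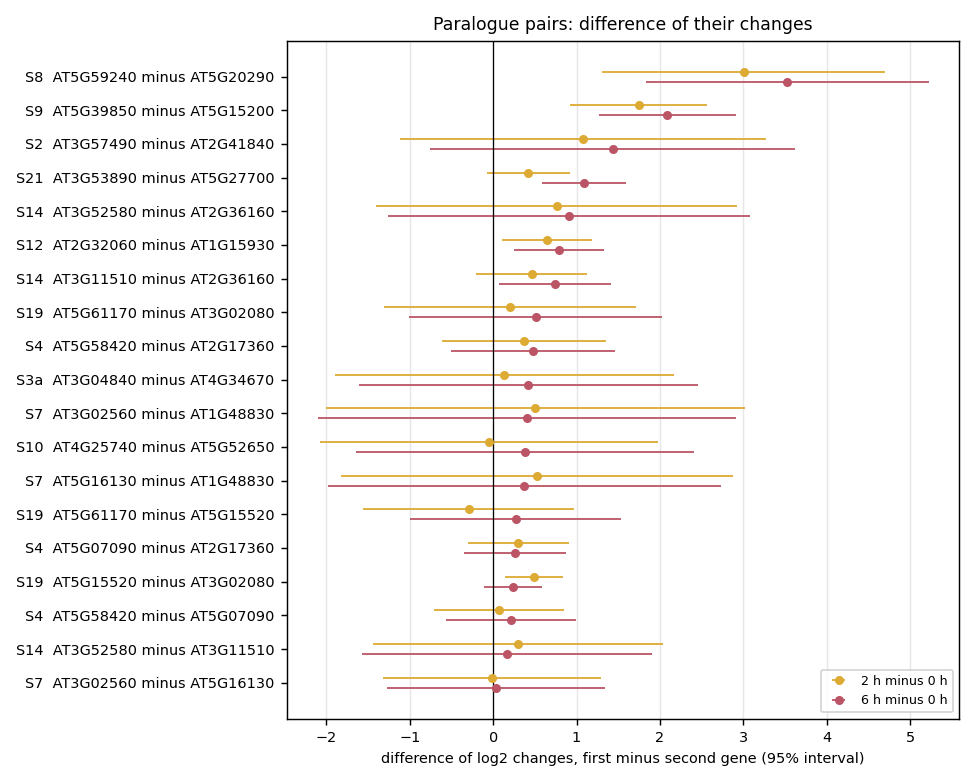
Difference of the log2 changes of 2 paralogues, first minus second gene, at 2 h and at 6 h against 0 h, with 95% intervals from 3 residual degrees of freedom. The first gene is the one with the larger change at 6 h, so all 6 h points lie right of 0 by this choice. The S8 and S9 pairs lie well to the right of 0 at both times, S21 at 6 h, and most other intervals span 0.

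Other pairs differed less, or by amounts their spread cannot place. The change of AT2G32060 exceeded that of its S12 paralogue AT1G15930 by 0.79 ± 0.17 at 6 h (0.25 to 1.33), with no overlap. Both genes were higher on replicate 1 than on replicate 2 at 0 h, so much of that gap cancels in the difference. Of S14, AT3G11510 exceeded AT2G36160 by 0.74 ± 0.21 (0.07 to 1.41), while AT3G52580 exceeded AT2G36160 by 0.91 ± 0.68 (-1.26 to 3.07), with 2.03 within the brighter and -0.21 within the dimmer arrays. AT3G52580 minus AT3G11510 was 0.17 ± 0.55 (-1.57 to 1.91). Without replicate 2 at 0 h 8 pairs parted by over 1 in place of 4, the added ones being AT3G52580 with AT2G36160, AT5G61170 with AT3G02080 of S19, and AT1G48830 with both other S7 genes.

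The pairs within S3a, S4, S7, S10 and S19 differed by at most 0.51 at 6 h, with intervals that span 0. Among the narrowest was AT5G07090 minus AT2G17360 of S4, at 0.26 ± 0.19 (-0.35 to 0.87). AT5G15520 minus AT3G02080 of S19 had 0.24 ± 0.11 (-0.11 to 0.59). At 2 h the difference of this S19 pair was larger, 0.49 ± 0.11 (0.15 to 0.84), with no overlap between the 0 h and 2 h arrays. The widest were those with AT1G48830 of S7, such as AT3G02560 minus AT1G48830 at 0.41 ± 0.79 (-2.11 to 2.92), for which a large difference either way is within the interval. Over all 19 pairs the median size of the difference was 0.42 at 2 h and 0.42 at 6 h.

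Across the 31 genes the log2 signal at 0 h and the change from 2 h to 6 h, which share no array, had a Pearson r of -0.30 and a Spearman rho of -0.31, as a description across genes on the same 6 arrays, which are not independent points. Over all 13647 tested probe sets r was -0.39. The 16 genes at or below the median 0 h signal had a median step of 0.75, and the 15 above it one of 0.57.

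Other genes of the translation machinery were set beside the 40S genes from lists that do not share members with them. Of 77 tested genes for 60S proteins 55 (71.4%) were called higher at 2 h and 72 (93.5%) at 6 h, against 71.0% and 93.5% of the 40S genes. Over all tested probe sets these shares were 7.26% and 16.8%. The 60S medians were 1.55 at 2 h and 2.27 at 6 h, and 0 were called lower at either time. At 6 h against 2 h 0 of the 77 were called (limma). An unadjusted p under 0.05 (limma) was reached by 17 of them, and by 3141 of all 13647 tested probe sets.

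A further list held 36 loci for small-subunit proteins outside the 60, with 16 named and 11 tested. Of the 11, 7 were called higher at 2 h and 9 at 6 h, where 7.26% and 16.8% of all tested probe sets were. Their medians were 1.44 and 2.00. The largest change was that of AT1G23410, a gene of the ubiquitin fusion protein S27a, with signals of 71.6 and 74.6 at 0 h, 296.3 and 351.4 at 2 h, then 675.4 and 659.8 at 6 h. It rose by 2.07 ± 0.33 and 3.11 ± 0.33 on the log2 scale. AT3G04920 of S24 rose by 2.60 ± 0.38 at 6 h, AT4G34555 of S25 by 2.29 ± 0.43 and AT3G47370 of S20 by 2.26 ± 0.34. The 5 that lay below the filter, among them 3 genes of S15 (AT5G09490, AT5G09500 and AT5G43640), had signals from 3.2 to 113.7 on the 6 arrays. No RACK1 gene, which encodes a scaffold on the head of the subunit, was named here.

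Factors that assemble the small subunit were higher as well. All 10 tested of 20 listed were called higher at 2 h and at 6 h, with medians of 2.02 and 2.65. Of all tested probe sets 7.26% were called higher at 2 h and 16.8% at 6 h. AT3G12860 and AT3G05060 encode homologues of NOP56 and NOP58, core proteins of the particles that methylate ribosomal RNA. AT3G12860 rose by 2.90 ± 0.31 at 2 h and 3.10 ± 0.31 at 6 h. AT3G05060 rose by 2.61 ± 0.34 and 3.34 ± 0.34. YAO, a nucleolar WD40 protein, rose by 3.16 ± 0.36 at 6 h, and AT5G38720, which encodes an RRP7 homologue, by 2.79 ± 0.44. AT5G41190, which encodes the homologue of NOB1, the enzyme that cuts the end of 18S rRNA in yeast, rose by 2.28 ± 0.30 at 2 h and 2.76 ± 0.30 at 6 h. At 6 h against 2 h 0 of the 10 were called (limma). An unadjusted p under 0.05 (limma) was reached by 2 of them, and by 3141 of all 13647 tested probe sets.

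Initiation factors bring the small subunit to the messenger RNA. Of 13 tested of 38 listed, 3 (23.1%) were called higher at 2 h, with a median of 0.82, where 7.26% of all tested probe sets were. At 6 h 7 (53.8%) were higher and 1 lower, with a median of 1.02, where 16.8% of all tested probe sets were higher. The 3 at 2 h were AT1G77840 of eIF5 (1.45 ± 0.32), AT2G04520 of eIF1A (1.30 ± 0.37) and AT4G20980 of eIF3d (1.26 ± 0.34). AT1G77840 was also higher at 6 h (1.02 ± 0.32; adjusted p = 0.0315, limma). AT4G20980 rose by 2.17 ± 0.34 at 6 h and AT3G02200, of eIF3m, by 1.94 ± 0.40. AT2G04520 rose by 1.81 ± 0.37 and AT5G15610, of eIF3m, by 1.72 ± 0.38. AT4G27130, of eIF1, fell by 0.89 ± 0.30 at 6 h (adjusted p = 0.0408, limma). Of 5 genes of the TOR and S6 kinase pathway, which signals nutrients to the ribosome, RAPTOR1 was named, with changes of -0.40 ± 0.40 and -0.74 ± 0.40 that were not called. Of 4 promoter-binding factors of the TCP20 and TRB kind 0 were named here. The plot of lists sets these side by side.

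**Figure D4:**
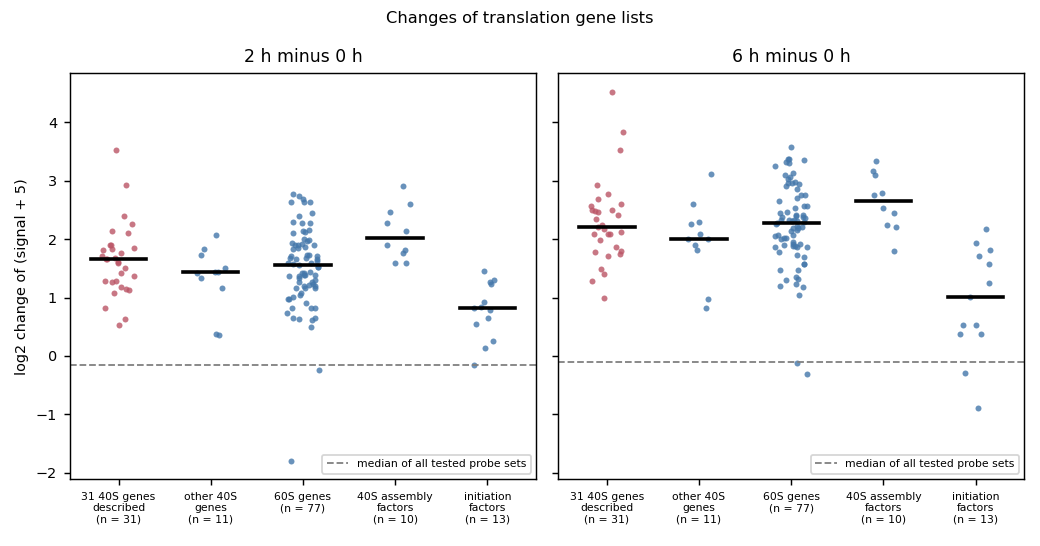
Log2 change against 0 h at 2 h (left) and 6 h (right) of the 31 40S genes and of the tested members of 4 other lists, 1 point a gene, with the list median as a bar and the median of all tested probe sets as a dashed line. The medians of the 40S, 60S and assembly lists lie between 1.55 and 2.65, and those of the initiation factors at 0.82 and 1.02.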

How the data were processed

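The authors deposited linear MAS5 signal intensities, 1 for each probe set on each array. MAS5 is named in the submitters' processing notes, without a version. The trimmed mean (2% from each end) of the values was 250 on every array. Replicate 1 at 2 h also has deposited detection p-values and calls, used as a description. Arrays have no read depth, so their number limits the precision.

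From these, log2(signal + 5) was computed. The 5 is the 10th percentile of all signals, and changes of dim probe sets are understated. Of 22810 probe sets 64 controls were left out, and 13647 above the 40th percentile of the mean were tested. All 6 arrays entered 1 limma 3.58.1 fit (lmFit; eBayes with trend; R 4.3.3) with 3 residual and 8.26 prior degrees of freedom. The fit was tested on simulated data. Gene names came from the array's annotation (13513 probe sets with 1 gene, 503 with several, 8794 unnamed here) through RefSeq's TAIR10.1 table, matched for 13436. Protein and promoter sequences and coordinates were not used here.

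The members, the gene lists and the tests were chosen with earlier results of these data known. Signals on every array are given for the 4 largest and 4 smallest changes in each comparison and for genes of proteins whose paralogues parted by over 1. Anchor genes given whatever their result were RPS8A and RPS8B, named by locus above, while RPS5A, RPS5B and others are unnamed here. From other lists at most 4 called genes were picked per time point and direction, largest change first. A gene picked for 1 time point may have its change at the other given too. A probe set may take up transcripts of close paralogues, which was not tested. Alternatives covered the pseudocount, filter, scaling, variance estimate, blocks, each array left out and the arrays in the fit.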

Additional observations from a re-analysis of the deposited data

How the results depend on the processing

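The count of genes called higher at 6 h against 0 h was 29, and 26 to 30 under the alternatives. The count at 2 h against 0 h was 22. It was 14 with eBayes without the intensity trend, 25 with the replicate number as a block, and 5 to 20 when each array was left out, the 5 being without replicate 2 at 2 h. At 6 h against 2 h it was 0, but 3 with the replicate block (AT3G53890, AT4G30800 and AT5G59240), 2 with only the 4 arrays compared, and 0 to 2 when each array was left out, with 2 (AT4G30800 and AT5G59240) without either 0 h replicate. No 0 h array enters the change at 6 h against 2 h, so leaving one out does not alter that change. The deviations of same-numbered arrays correlated weakly, at 0.06, 0.11 and 0.15. Whether samples of the same replicate number were prepared together cannot be told from these values. The block left the 6 h count against 0 h at 29. The median change at 6 h was 1.87 after quantile normalization, and 0 genes were called lower under any alternative. Pairs that parted at 6 h were 4, and 3 to 8 when each array was left out. The 8 came without replicate 2 at 0 h, where the differences of the 4 added pairs were themselves larger (1.04 to 1.48, against 0.37 to 0.91 with all arrays), and the cause was not tested. Without replicate 1 at 0 h 5 pairs parted.

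All changes that turned sign were among those not called. At 6 h against 2 h AT5G20290 had -0.0021 and AT5G52650 -0.026 after quantile normalization. With each array left out, the change at 6 h against 2 h ran from -0.11 to 0.75 for AT5G27700 (-0.0036 without replicate 1 at 2 h), from -0.11 to 0.73 for AT5G09510 and from -0.10 to 0.48 for AT5G52650. AT5G16130, which is not among the genes given on every array, had -0.075 without replicate 1 at 2 h. That at 2 h ran from -0.27 to 1.32 for AT5G20290 and from -0.21 to 1.46 for AT1G15930, both lowest without replicate 2 at 0 h. The causes were not tested. Where 1 array is left, it is assumed to vary like the other groups. The mean over several probe sets of a locus was not run, since each of the 31 genes had 1.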
